A study of Mus musculus with 4 samples.

Results

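The genes described here are dermal fibroblast markers, collagens and enzymes and glycoproteins of the extracellular matrix, read in HFSCs, the hair follicle stem cells from which the follicle is rebuilt in each hair cycle. The list holds 43 genes. Members were taken from the probe sets that GEO's platform annotation gives exactly 1 gene symbol, and each gene was represented by its probe set of highest mean over the 4 arrays. 42 of the 43 genes had such a probe set, out of 18193 genes in all. Fbn1, the gene of fibrillin 1, was not analysed here.

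The study measured messenger RNA on 1-colour Affymetrix arrays in HFSCs from skin of miR-205 KO mice and from skin of WT mice, both on a C57BL/6 background and both at postnatal day 4 (P4). 2 arrays carried KO RNA (KO 1 and KO 2) and 2 carried WT RNA (WT 1 and WT 2), and the sample titles give the numbers as biological replicates. The cells were sorted by flow cytometry, and the gate, the miR-205 allele and the number of animals behind each array are details the labels do not state. A treatment text attached to all 4 samples describes doxycycline induction of miR-203 under a K14 driver in other mice, names no miR-205 allele and was not used to form groups. Nothing says whether a number marks a shared litter or day, so the p-values below measure the spread between these 4 samples, which may be partly technical. The microRNA missing from the KO cells is shown because it defines the comparison. Its mature 5′ arm (RefSeq, GRCm38.p6, chr1:193507503-193507524, minus strand) has bases 2 to 8, the seed that pairs with target transcripts, in capitals.
mmu-miR-205-5p: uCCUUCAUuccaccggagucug

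The dermis beneath the epidermis is made largely by fibroblasts. They secrete fibrillar collagens, which are trimmed and crosslinked outside the cell, together with small proteoglycans that space the fibrils, elastic fibres that let skin recoil, and proteases with their inhibitors that remodel the whole. Follicle epithelium sits on a basement membrane of type IV collagen, laminin and nidogen, to which both epithelium and dermis contribute, and keratinocytes can themselves make some matrix proteins, among them type IV collagen and tenascin C.

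The labelled cell type was read from epithelial genes. The keratin genes Krt14, Krt5 and Krt15 had values of 13.65, 13.76 and 13.83 on KO 1, 13.73, 13.68 and 14.05 on KO 2, 13.54, 13.58 and 13.62 on WT 1, and 13.57, 13.47 and 13.78 on WT 2 (RMA values, log2 scale, where a difference of 1 is 2-fold). The KO and WT arrays also differed in Xist, a transcript of the inactive X chromosome, at 5.26 and 5.45 in KO against 13.28 and 13.19 in WT cells. The Y-linked gene Eif2s3y was at 9.59 and 9.57 in KO against 3.05 and 2.86 in WT cells. Genotype and these sex-linked genes therefore cannot be told apart in any comparison of KO with WT.

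The dermal fibroblast and matrix genes differed mainly between arrays of 1 genotype, with a median gap of 2.20 on the log2 scale between the WT arrays. 30 of the 42 had their highest value on WT 1, followed by KO 1, KO 2 and WT 2. This order was seen in 4.33% of all 18193 genes. Genes with exactly equal values on at least 2 arrays can hold no order. They numbered 7819 of the 18193 but only 1 of the 42, Fbln1, so the share of all genes is lowered by ties. Ties can likewise lower the other shares of all genes, here and below, that count 1 array above or below another. The distance of the members from all genes is therefore partly one of ties. WT 1 stood above the 3 other arrays for 38 of the 42 genes, against 17.4% of all genes. WT 1 and KO 1 were both above KO 2 and WT 2 for 35 of the 42, against 22.0% of all genes. Both counts include, by definition, the 30 genes with the full order. In sorted bulk cells, fewer cells of a type and less RNA per cell cannot be told apart. The medians of the 42 genes were 9.32 on KO 1, 8.89 on KO 2, 10.16 on WT 1 and 8.54 on WT 2. Over all genes the medians were 6.90, 6.87, 6.91 and 6.83 on the same arrays.

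**Figure D1:**
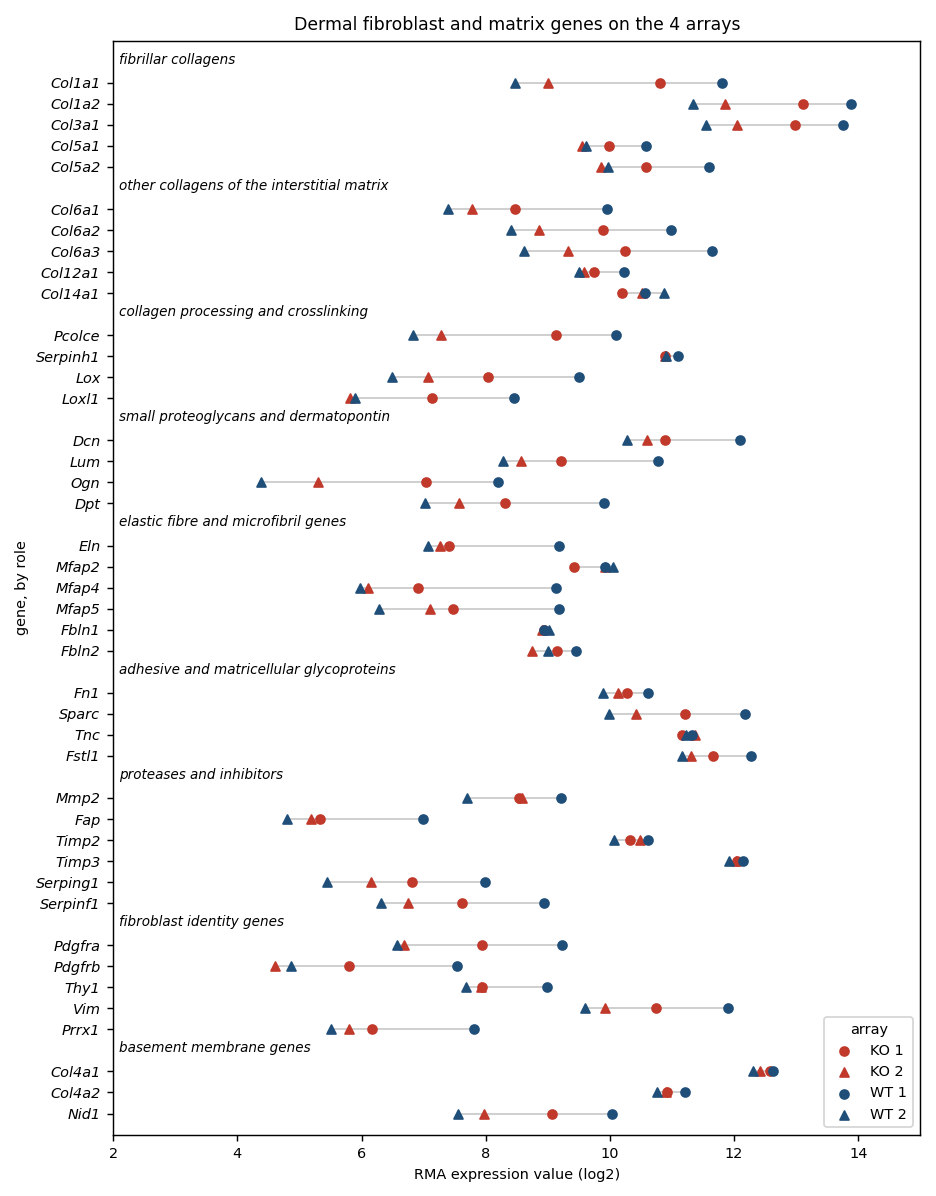
RMA expression value (log2) of each of the 42 genes on the 4 arrays, by role; red marks KO, blue marks WT, circles are the arrays numbered 1 and triangles those numbered 2, and the grey line joins the lowest and highest array. For most genes the blue circle (WT 1) lies furthest right and the blue triangle (WT 2) furthest left, with both KO arrays between them, while Serpinh1, Fbln1, Tnc, Timp3 and Col4a1 have all 4 points close together.

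The fibrillar collagens form the tensile rods of the dermis. Col1a1, which encodes the alpha 1 chain of type I collagen, was at 10.81 and 9.01 in KO cells and at 11.80 and 8.47 in WT cells (arrays 1 and 2 of each genotype, here and below). Col1a2, the second chain of that collagen, was at 13.10 and 11.86 in KO against 13.89 and 11.34 in WT cells. Both KO values lay inside the WT range for both chains. WT 1 was 10.1-fold above WT 2 for Col1a1 and 5.86-fold for Col1a2, and KO 1 was 3.47-fold and 2.38-fold above KO 2. Col3a1, the type III collagen that is abundant in young skin, was at 12.97 and 12.05 in KO against 13.75 and 11.54 in WT cells. The type V chains, which set the width of the fibrils, kept WT 1 and KO 1 on top but had KO 2 slightly below WT 2. Col5a1 was at 9.98 and 9.54 in KO against 10.57 and 9.61 in WT cells, and Col5a2 at 10.58 and 9.86 against 11.59 and 9.97.

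Type VI collagen forms beaded filaments around cells and fibrils, and its 3 chains followed the common order. Col6a3 was at 10.24 and 9.33 in KO against 11.64 and 8.61 in WT cells, with WT 1 8.14-fold above WT 2. Col6a1 (8.47 and 7.78 in KO, 9.96 and 7.40 in WT) and Col6a2 (9.89 and 8.86 in KO, 10.99 and 8.40 in WT) had WT arrays 5.91-fold and 5.99-fold apart. The fibril-associated collagens departed from them. Col12a1 kept the order over a narrow range, at 9.75 and 9.58 in KO against 10.23 and 9.51 in WT cells. Col14a1 was at 10.20 and 10.51 in KO against 10.57 and 10.88 in WT cells, with both KO arrays below both WT arrays and with the arrays numbered 2 above those numbered 1.

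Among genes that process and crosslink collagen, 3 of the 4 spread widely. Pcolce, a secreted enhancer of the protease that trims procollagen, was at 9.13 and 7.29 in KO against 10.10 and 6.82 in WT cells, a 9.68-fold gap between the WT arrays. Lox, the lysyl oxidase that starts crosslinking of collagen and elastin, was at 8.04 and 7.08 in KO against 9.49 and 6.49 in WT cells. Loxl1, a related oxidase needed for elastic fibres, was at 7.13 and 5.82 in KO against 8.46 and 5.90 in WT cells. Serpinh1, the collagen chaperone HSP47 of the endoplasmic reticulum, did not share this spread. It was at 10.89 on both KO arrays against 11.09 and 10.90 in WT cells.

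The small leucine-rich proteoglycans and dermatopontin bind collagen fibrils, and all 4 genes held the common order. Ogn (osteoglycin) had the widest gap of the 42 in the probe set used, at 7.03 and 5.30 in KO against 8.20 and 4.39 in WT cells, a gap of 3.82 on the log2 scale (14.1-fold as the RMA values stand). That probe set had a mean below the median gene (6.88), so the size of its gap is uncertain. The other probe set of Ogn, also below the median gene, held the same order at 6.10 and 5.72 in KO against 7.29 and 5.44 in WT cells, a gap of 1.85. Loxl1, Fap, Serping1, Pdgfrb and Prrx1 were likewise below the median gene. The other set of Pdgfrb, also dim, had a gap of 0.11 against 2.67 in the set used. That of Loxl1, dim too, had 0.44 against 2.56 and held the common order. Prrx1 had dim sets with gaps of 2.62 and 2.65 and others near level. Fap and Serping1 had 1 probe set each. Dcn (decorin) was at 10.88 and 10.59 in KO against 12.10 and 10.27 in WT cells. Lum (lumican) was at 9.22 and 8.57 in KO against 10.77 and 8.27 in WT cells, and Dpt, dermatopontin, at 8.32 and 7.57 against 9.91 and 7.02.

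Elastic fibre genes split into a wide and a narrow set. Eln, the elastin core protein, was at 7.41 and 7.27 in KO against 9.17 and 7.07 in WT cells. Mfap4 was at 6.90 and 6.10 in KO against 9.14 and 5.98 in WT cells, and the microfibril gene Mfap5 at 7.48 and 7.10 against 9.18 and 6.28. For these 3 genes WT 1 stood alone and the other arrays lay closer together. Mfap2, which encodes another microfibril glycoprotein, was at 9.42 and 9.92 in KO against 9.91 and 10.05 in WT cells, so its lowest array was KO 1. The fibulin gene Fbln1 varied least of the elastic fibre genes, at 8.94 and 8.91 in KO against 8.94 and 9.03 in WT cells, with equal values on KO 1 and WT 1. Fbln2 was at 9.15 and 8.75 in KO against 9.45 and 9.00 in WT cells.

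Of the adhesive and matricellular glycoproteins, Sparc, a collagen-binding protein, was at 11.21 and 10.42 in KO against 12.18 and 9.99 in WT cells. Fstl1, a secreted glycoprotein of mesenchyme, was at 11.65 and 11.30 in KO against 12.28 and 11.16 in WT cells. Fn1, fibronectin, held the order over a narrow range, at 10.27 and 10.14 in KO against 10.61 and 9.89 in WT cells. Tnc, tenascin C, did not hold it, at 11.17 and 11.37 in KO against 11.32 and 11.23 in WT cells, with KO 2 as its highest array. A second probe set of Tnc, at 8.96 and 8.81 in KO against 9.19 and 8.95 in WT cells, had WT 1 highest and KO 2 lowest.

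In the probe sets used, all 6 protease and inhibitor genes were highest on WT 1. Fap, the serine protease that gives activated fibroblasts their name of FAP-positive cells, was at 5.33 and 5.18 in KO against 6.98 and 4.80 in WT cells. Serping1, the C1 inhibitor of complement, was at 6.81 and 6.16 in KO against 7.98 and 5.45 in WT cells, and Serpinf1, the anti-angiogenic factor PEDF, at 7.62 and 6.74 against 8.93 and 6.32. Mmp2, the gelatinase that cleaves type IV and denatured collagens, had its KO arrays close together, at 8.53 and 8.59 against 9.21 and 7.70 in WT cells. Timp2, which inhibits MMP2 and also takes part in its activation, was at 10.32 and 10.49 in KO against 10.61 and 10.07 in WT cells. In the probe sets used, Mmp2 and Timp2 were the 2 genes with the order WT 1, KO 2, KO 1, WT 2. Of all genes 0.945% had it. The other set of Mmp2 kept that order, but for Timp2 it depended on the probe set. A set at 10.13 and 9.57 in KO against 10.35 and 9.22 in WT cells held the common order. So did a set at 8.45 and 8.13 against 8.52 and 7.92. Another, at 9.37 and 9.62 against 9.56 and 9.29, was highest on KO 2. A dim set kept the order of the set used, and another had equal values on all arrays. Timp3, the inhibitor that stays bound to the matrix, ranged little, at 12.05 and 12.04 in KO against 12.15 and 11.92 in WT cells.

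The genes that identify fibroblasts all had WT 1 highest and KO 1 next. Pdgfra, the PDGF receptor of most dermal fibroblasts, was at 7.94 and 6.68 in KO against 9.22 and 6.57 in WT cells. Pdgfrb, the receptor also carried by pericytes, was at 5.80 and 4.60 in KO against 7.54 and 4.87 in WT cells, so KO 2 was its lowest array. Vim, the intermediate filament of mesenchymal cells, was at 10.74 and 9.91 in KO against 11.91 and 9.59 in WT cells. Prrx1, a homeobox gene of limb and skin mesenchyme, was at 6.17 and 5.80 in KO against 7.81 and 5.51 in WT cells. Thy1, the surface glycoprotein CD90, was at 7.93 on both KO arrays against 8.99 and 7.69 in WT cells.

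Of the basement membrane genes, the 2 chains of type IV collagen were nearly level across arrays. Col4a1 was at 12.57 and 12.42 in KO against 12.63 and 12.31 in WT cells, and Col4a2 at 10.92 and 10.91 against 11.20 and 10.76. Nid1, the nidogen that links laminin to type IV collagen, spread like the fibroblast genes, at 9.08 and 7.97 in KO against 10.03 and 7.56 in WT cells. All 3 held the common order. Over the 9 role groups the median gap WT 1 minus WT 2 ran from 0.45 in the basement membrane genes to 2.79 in the collagen processing genes.

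WT 1 was at least 2-fold above WT 2 for 29 of the 42 genes, against 1.31% of all genes, and at least 4-fold above for 24, against 0.363%. These 24 were among 66 genes of the whole array with a gap of that size, and no member was 2-fold lower on WT 1 than on WT 2, against 0.187% of all genes. Of the 29 wide-gap genes 25 held the full order of arrays, and of the 209 other genes with a 2-fold gap 141 did (67.5%). KO 1 was at least 2-fold above KO 2 for 9 of the 42, against 0.33% of all genes. The 9 were Col1a1, Col1a2, Col6a2, Pcolce, Loxl1, Ogn, Pdgfra, Pdgfrb and Nid1. In the 30 genes with the full order, the gap between the KO arrays is smaller than that between the WT arrays by definition. The gap between the KO arrays was the smaller of both gaps for 39 of the 42, against 44.6% of all genes. Its median was 0.55 on the log2 scale in KO against 2.20 in WT cells, where both medians over all genes were 0.00. Genes with a wide gap between the WT arrays tended to have a wide gap between the KO arrays. Pearson's r was 0.84 and Spearman's rho 0.85 across the 42 genes, against 0.56 and 0.54 across all 18193. These correlations run across genes that share the same 4 arrays and are no independent replicates, so they describe the arrays only. The gap was narrower in members of higher probe set mean (r = -0.53 across the 42), and the values hold no detection or saturation calls.

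**Figure D2:**
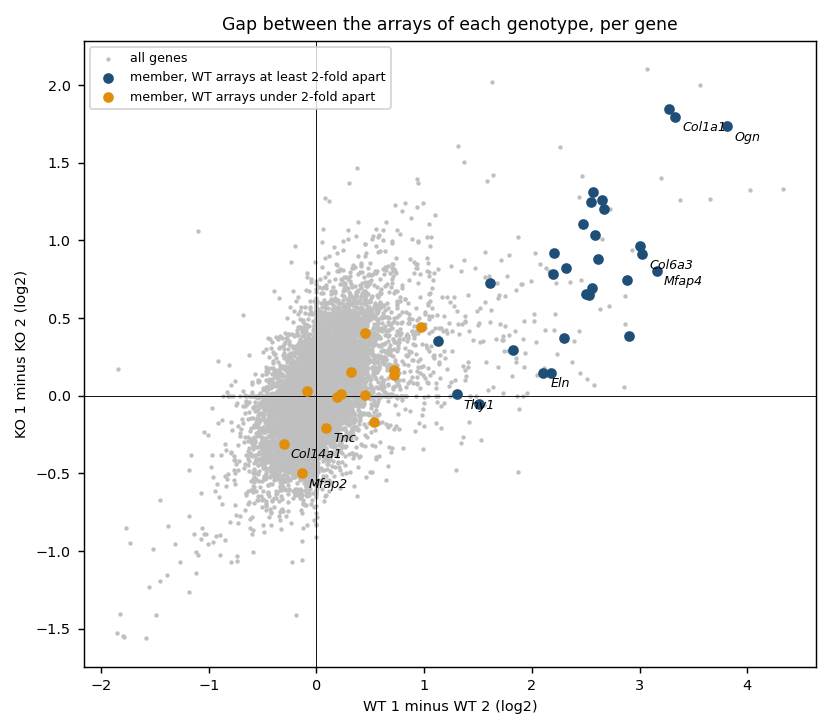
KO 1 minus KO 2 against WT 1 minus WT 2 for each gene (log2), with all 18193 genes in grey, the 29 genes whose WT arrays were at least 2-fold apart in blue and the 13 others of the list in orange. The blue points lie to the right of most grey points, from 1.12 to 3.82 on the WT axis, and the orange points lie between -0.31 and 0.97.

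The place of the KO arrays between both WT arrays was also read on the linear scale for the 29 genes with WT arrays at least 2-fold apart, with WT 2 set to 0% and WT 1 to 100%. KO 1 stood at a median of 28.7% of the way (quartiles 19.99% and 37.1%, range 8.22% to 49.5%). KO 2 stood at a median of 7.17% (quartiles 4.87% and 9.01%, range -3.75% to 46.0%). In the probe sets used, KO 1 was furthest towards WT 1 for Col1a2 (49.5%), Col3a1 (46.7%) and Pcolce (45.5%). It was nearest to WT 2 for Eln (8.22%) and Mfap4 (11.3%). Another set placed KO 1 further below WT 1 for Col3a1 (-1.47 against -0.78, log2) and for Pcolce (-1.24 against -0.97). For Col1a2 the same difference was -1.09 against -0.78, so this ranking holds for the probe sets used only. Mmp2 gave the 46.0% of KO 2, and the next highest value was 13.2%, for Serping1. The quartiles of KO 1 lay further apart than those of KO 2.

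Within replicate number 1 the KO array was lower, and within number 2 it was mostly higher. KO 1 was below WT 1 for 41 of the 42 genes, against 40.8% of all genes, and at least 2-fold below for 21, against 0.506%. KO 2 was above WT 2 for 33 of the 42, against 45.8% of all genes, and at least 1.5-fold above for 6, against 0.819%. The same 33 genes were below WT 1 on KO 1 and above WT 2 on KO 2, a change of sign seen in 17.6% of all genes. In 30 of the 33 this change follows from the full order of arrays and is no separate result. The median difference over the 42 was -0.998 in number 1 (range -2.23 to 0.00) and 0.29 in number 2 (range -0.36 to 0.91). The largest differences in number 1 were those of Mfap4 (-2.23), Eln (-1.76), Pdgfrb (-1.73) and Mfap5 (-1.70). In number 2 they were those of Ogn (0.91), Mmp2 (0.89), Mfap5 (0.81) and Col6a3 (0.72). Each difference is between single arrays and has no error of its own. In the probe sets used, Col5a1, Col5a2, Col14a1, Serpinh1, Loxl1, Mfap2, Fbln2 and Pdgfrb did not change sign and were lower in both numbers. Fbln1, the remaining gene without a change of sign, was equal in number 1 and 0.11 lower in number 2.

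**Figure D3:**
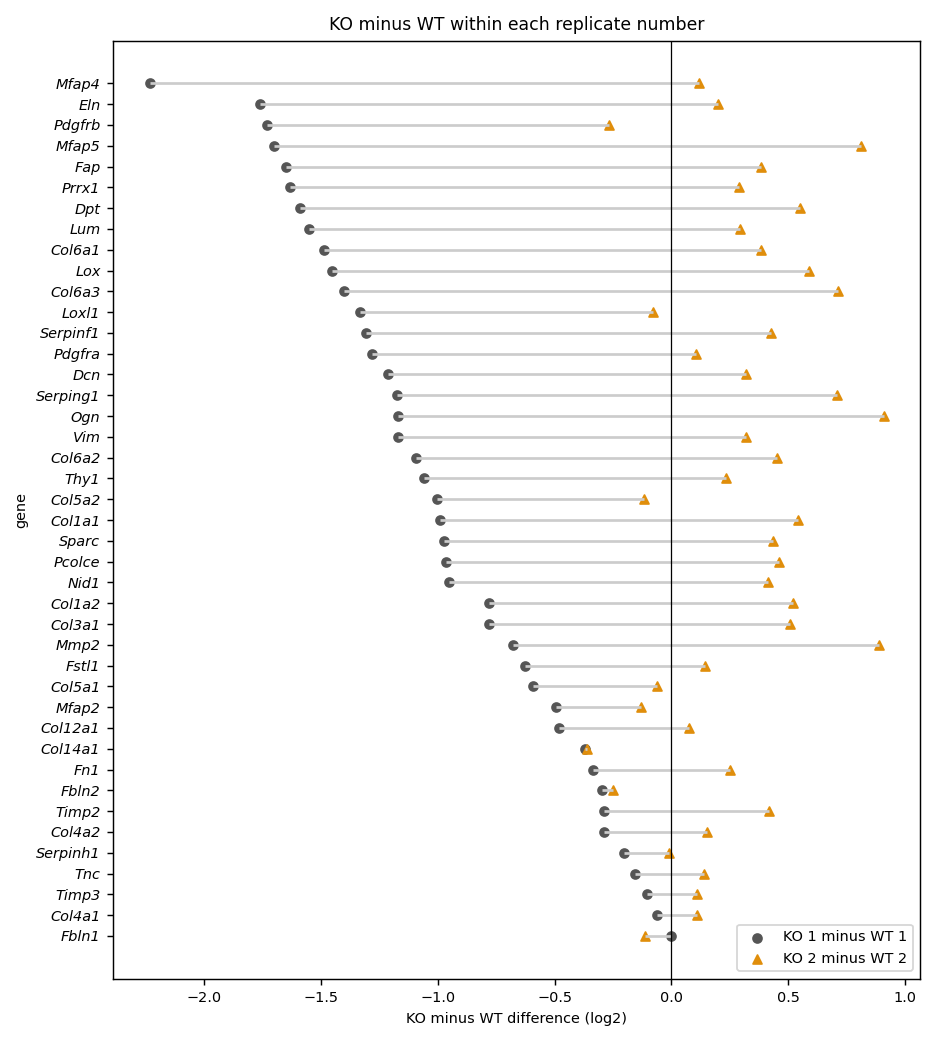
KO minus WT difference (log2) of each gene between the arrays numbered 1 (grey circles) and between those numbered 2 (orange triangles), with genes in order of the first. The circles run from -2.23 to 0.00 and most triangles lie to the right of 0, while both marks of Col14a1 coincide near -0.37.

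The test of KO against WT over all 4 arrays called no member. Of 18193 genes tested with limma, 2 (0.011%) had a Benjamini-Hochberg adjusted p under 0.05, Xist and Eif2s3y, and 342 (1.88%) had an unadjusted p under 0.05. None of the 42 genes was in either count, and the adjusted p of each was 1 (limma). 38 of the 42 had a lower mean in KO cells, against 45.5% of all genes, with a median difference of -0.32, where the median over all genes was 0.01. The standard error was above the size of the difference for 37 of the 42, and the 5 others were Col14a1, Serpinh1, Mfap2, Fbln1 and Fbln2. Mean Col1a2 was 12.48 ± 0.88 on the KO arrays against 12.61 ± 1.80 on the WT arrays (SD of 2 arrays per genotype), so KO minus WT was -0.13 (moderated SE 1.15). Mean Mfap4 was 6.50 ± 0.57 on the KO arrays against 7.56 ± 2.23 on the WT arrays, and KO minus WT was -1.06 (SE 1.32). An exact permutation test of 2 arrays against 2 cannot give a two-sided p below 0.333.

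The direction and size of the median difference rested on single arrays. Without WT 1, 37 of the 42 genes were higher in KO cells, against 55.3% of all genes in the same fit, and the median difference was 0.50. Without WT 2, all 42 were lower in KO cells, against 44.5% of all genes, and the median was -1.45. Without KO 2, 16 of the 42 were higher, against 54.7% of all genes, and the median was -0.06. Without KO 1, 3 of the 42 were higher, against 56.0%, and the median was -0.69. No member passed in any of these fits, and the smallest adjusted p among the 42 was 0.454 (limma, without KO 2).

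In the probe sets used, 2 of the 42 genes, Col14a1 and Serpinh1, had both KO arrays outside the WT range on the same side. Both KO arrays lay below both WT arrays for them, which held for 5.7% of all genes, and the opposite, in 8.2% of all genes, held for none. Col14a1, a fibril-associated collagen of dermis and tendon, had means of 10.36 ± 0.22 on the KO arrays against 10.72 ± 0.22 on the WT arrays (SD of 2 arrays per genotype). KO minus WT was -0.37 (SE 0.18, unadjusted p of 0.133 and adjusted p of 1 by limma), and it was -0.37 in number 1 and -0.36 in number 2. A second probe set of Col14a1 was at 9.05 and 9.43 in KO against 9.27 and 9.85 in WT cells, lower within both numbers but with overlapping groups. The remaining set was dim and highest on WT 1, at 5.28 and 5.12 in KO against 6.07 and 5.22 in WT cells. Serpinh1 differed by -0.11 (SE 0.09), and KO 2 and WT 2 were 0.01 apart. A second probe set of Serpinh1, at 10.634 and 10.629 in KO against 10.844 and 10.625 in WT cells, had WT 2 lowest. It held the common order, so the groups overlapped.

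Other probe sets gave a second reading of 33 of the 42 genes. They numbered 54, of which 26 had a mean above that of the median gene (6.88). Among these 26 were 12 that belong to genes with WT arrays at least 2-fold apart, and 11 of the 12 likewise had WT 1 at least 2-fold above WT 2. 9 of the 12 also held the full order of arrays, as did 14 of the 26 and 21 of all 54. The other probe set of Col1a1 was at 9.17 and 7.47 in KO against 10.24 and 7.07 in WT cells, that of Col3a1 at 9.93 and 8.87 against 11.40 and 8.38, and 1 of Sparc at 10.15 and 8.59 against 11.03 and 8.25. For these collagens and for Col1a2 (11.43 and 9.91 in KO, 12.51 and 9.35 in WT) the second reading kept the order. The second set of Serpinf1, at 7.16 and 7.17 in KO against 7.87 and 7.03 in WT cells, was the 1 of the 12 under 2-fold. The remaining 14 of the 26 belong to genes with closer WT arrays, and 1 of the 14 was 2-fold apart, a set of Timp2 at 10.13 and 9.57 in KO against 10.35 and 9.22 in WT cells. The further bright sets of Timp3 and the second set of Serpinh1 stayed within 0.25 between the WT arrays.

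**Figure D4:**
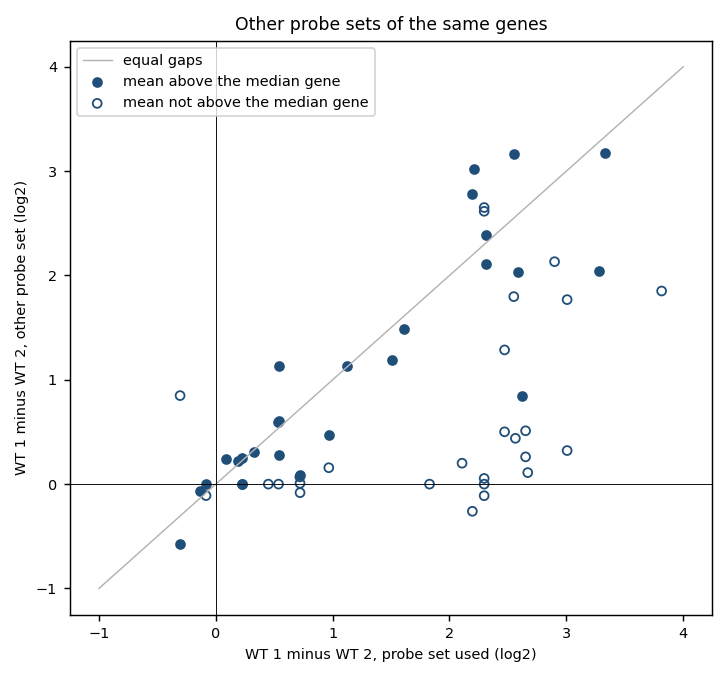
WT 1 minus WT 2 (log2) of the 54 other probe sets against that of the probe set used for the same gene; filled points have a mean above the median gene and open points do not, and the line marks equal gaps. Most filled points follow the line, while many open points lie near 0 on the vertical axis.

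The members lie on 14 chromosomes, and 4 pairs are direct neighbours among protein-coding genes of the GRCm38.p6 RefSeq table. WT 1 over WT 2 was 4.62-fold for Col3a1 and 3.06-fold for Col5a2, 5.91-fold for Col6a1 and 5.99-fold for Col6a2, 3.55-fold for Dcn and 5.66-fold for Lum, and 1.25-fold for Col4a1 and 1.36-fold for Col4a2. Col6a1 and Col6a2 lie head to tail, and Col4a1 and Col4a2 head to head. Col6a3, also a type VI chain, lies apart from its partners on chromosome 1.

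Promoter windows from 250 bases before to 50 bases after the start were available for 25 of the 42 genes (29 windows, RefSeq, GRCm38.p6). Their base composition was read beside the width of the gap between WT arrays. In the 16 windows of genes with WT arrays at least 2-fold apart the median number of CpG dinucleotides was 5 and the median GC content 56.5%. In the 13 windows of genes with closer arrays these were 22 and 64.0%, and over all 32851 windows they were 7 and 52.7%. The letters GGGCGG, searched on both strands, were in 6 of the 16 windows and in 11 of the 13, against 35.7% of all windows. TATAAA, on both strands, was in 4 of the 16 and 2 of the 13, against 13.6% of all windows, and CCAAT in 4 of the 16 and 4 of the 13, against 37.4%. The 2 sets of windows overlapped. Fstl1 and Nid1, with a wide gap, had 21 and 20 CpG, while Fbln2 and 1 window of Mfap2, with closer arrays, had 10 and 6. Fbln1, Mfap2 and Tnc count with 2 windows each among the 13, and Col6a2 among the 16. The windows of Col4a1 and Col4a2, also among the 13, share part of their bases. They hold 37 and 33 CpG, and both have GGGCGG and CCAAT. The difference between the sets was not tested. 3 windows are printed as picked examples and do not stand for all members. Ogn had the widest gap between WT arrays, Col3a1 is a wide-gap fibrillar collagen and Timp3 a gene with nearly equal arrays. Capitals mark any of these 3 motifs in either direction, and the TATAAA of Ogn is matched on both strands by overlapping letters. The windows hold 4 CpG in Ogn (chr13:49607765-49608064, plus strand), 0 in Col3a1 (chr1:45311288-45311587, plus strand) and 24 in Timp3 (chr10:86300162-86300461, plus strand). A match is a run of letters and not a shown binding site.
Ogn: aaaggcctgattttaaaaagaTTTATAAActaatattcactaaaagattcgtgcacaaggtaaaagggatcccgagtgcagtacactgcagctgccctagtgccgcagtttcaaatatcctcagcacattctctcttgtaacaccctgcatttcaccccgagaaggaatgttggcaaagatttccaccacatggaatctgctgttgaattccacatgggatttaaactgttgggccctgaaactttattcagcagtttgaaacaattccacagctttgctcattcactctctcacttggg
Col3a1: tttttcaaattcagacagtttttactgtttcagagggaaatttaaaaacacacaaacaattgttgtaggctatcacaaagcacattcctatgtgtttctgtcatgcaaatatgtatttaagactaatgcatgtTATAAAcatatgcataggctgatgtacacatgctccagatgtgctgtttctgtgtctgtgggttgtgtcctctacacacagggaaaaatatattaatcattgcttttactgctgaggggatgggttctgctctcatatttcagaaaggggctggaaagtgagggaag
Timp3: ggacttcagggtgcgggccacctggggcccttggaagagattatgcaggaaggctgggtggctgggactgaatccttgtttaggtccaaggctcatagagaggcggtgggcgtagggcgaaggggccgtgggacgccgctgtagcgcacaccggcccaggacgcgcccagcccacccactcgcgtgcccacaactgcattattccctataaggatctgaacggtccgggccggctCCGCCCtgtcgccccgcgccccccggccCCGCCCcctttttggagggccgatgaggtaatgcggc

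Other genes of the matrix, none of them members, shared the pattern in part. Of 38 further interstitial matrix genes, 14 held the order WT 1, KO 1, KO 2, WT 2, against 30 of the 42 members and 4.33% of all genes, and their median WT 1 minus WT 2 was 0.64. Of them, Postn, periostin, was at 12.77 and 11.98 in KO against 12.94 and 11.90 in WT cells. Ltbp3, a latent TGF-beta binding protein, was nearly level at 12.06 and 11.99 in KO against 12.16 and 12.02 in WT cells. Of 21 matrix proteases and inhibitors 8 held the order (median gap 0.35), among them the membrane collagenase Mmp14, at 10.72 and 10.32 in KO against 10.84 and 10.06 in WT cells. Of 18 collagen and matrix receptors 5 held it (median gap 0.24). Genes of collagen modification, secretion and trimming, a list that joins enzymes inside the cell with secreted ones such as Bmp1 and Loxl3, held it in 3 of 18 cases, with a median gap of 0.08. The prolyl isomerase Ppib, which acts in the endoplasmic reticulum, was at 12.12 and 12.25 in KO against 12.13 and 12.16 in WT cells. No gene of these 4 lists passed limma at an adjusted p under 0.05 in either direction, and 1 of the 95 had an unadjusted p under 0.05.

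Markers of other cell types that a sort of skin could hold were read the same way. Dermal fibroblast genes outside the list came closest, with 10 of 18 in the common order and a median gap of 0.97 between the WT arrays. The sum of their values on the linear scale was 2243 on KO 1 and 2010 on KO 2, against 3362 on WT 1 and 1597 on WT 2. The same sum over the 42 members was 59963 and 43274 in KO against 98084 and 37564 in WT cells. Pdpn, Lrp1 and Cd248 of that list held the order, Cd248 (endosialin, a stromal surface protein) at 8.02 and 7.58 in KO against 8.66 and 7.56 in WT cells. Melanocyte genes held it in 3 of 9 cases, with a linear sum of 1324 and 856 in KO against 1515 and 902 in WT cells. Pericyte and smooth muscle genes held it in 2 of 11 cases, with a sum of 7287 and 7371 in KO against 9553 and 6605 in WT cells. The smooth muscle actin gene Acta2 was at 11.14 and 10.86 in KO against 11.79 and 10.61 in WT cells. Tagln of the same list did not hold the order, at 11.60 and 11.80 in KO against 11.96 and 11.59 in WT cells. Cspg4 was nearly level, at 9.77 and 9.71 in KO against 9.71 and 9.73 in WT cells. Tagln and Acta2 weigh most in the sum of this list. Endothelial (2 of 14), adipocyte (1 of 8), dermal papilla and sheath (1 of 14), Schwann and nerve (1 of 7) and suprabasal epidermal genes (2 of 12) had 1 or 2 genes each in that order, and immune (0 of 15), muscle (0 of 12), red blood cell (0 of 5), basal keratinocyte (0 of 15), HFSC (0 of 16) and housekeeping genes (0 of 7) had none. Genes with a mean above the median gene were few in the immune (1 of 15) and muscle (1 of 12) lists. The red blood cell list had 0 of 5 and the endothelial list 2 of 14. Other dermal fibroblast genes had 7 of 18, basal keratinocyte genes 15 of 15 and HFSC genes 14 of 16. A count of 0 in a list of dim genes, or of genes with equal values on arrays, therefore says little. The differences between these lists were not tested. Basal keratinocyte genes summed to 74911 and 70523 in KO against 69140 and 65170 in WT cells, and HFSC genes to 42654 and 42042 against 39685 and 39025. No list holds a value of 0, because RMA gives every probe set a positive value. The part of any of these cell types in the order of the arrays was not tested.

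**Figure D5:**
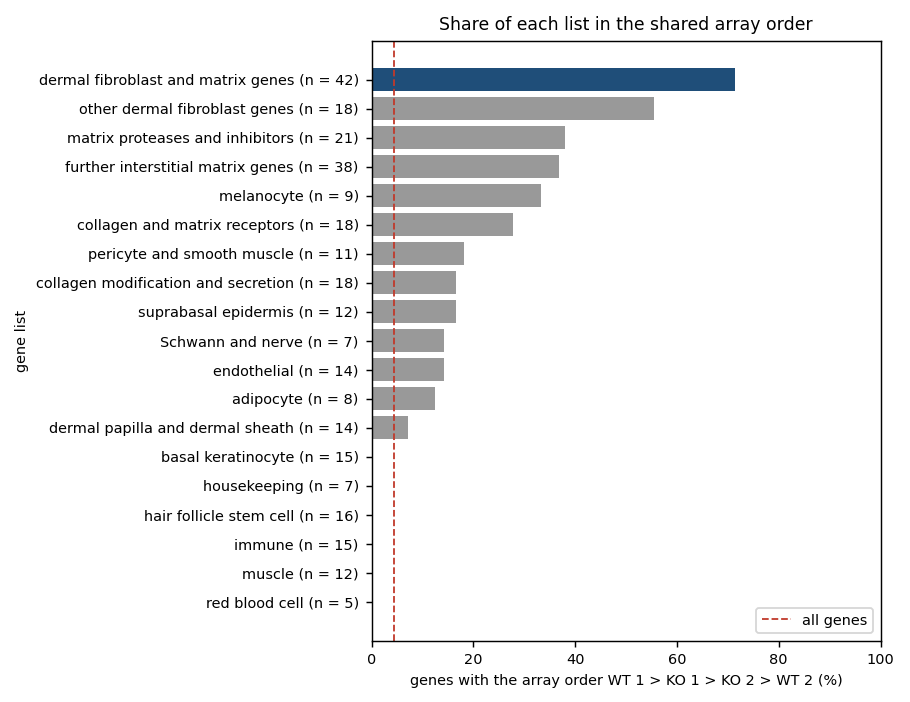
Share of the genes of each pathway or cell type list (percent, n in brackets; the sex-linked genes are not drawn) whose values fall in the order WT 1, KO 1, KO 2, WT 2 from high to low, with the 42 genes in blue and the share of all genes, 4.33%, as the dashed line. Dermal fibroblast and matrix genes lead with 71.4%, other dermal fibroblast genes follow with 55.6%, and 6 of the lists drawn have no gene in that order. Of these 6, the immune, muscle and red blood cell lists hold mostly genes with a mean not above the median gene. Genes with equal values on at least 2 arrays count as not in the order, which lowers the dashed line.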

How the data were processed

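Values are log2 expression levels as deposited. RMA produced them, without a stated version, per the submitters' processing notes. RMA in general corrects background, brings arrays to 1 distribution and summarises probes by median polish. Array medians over 45101 probe sets lay between 5.85 and 5.87. On 47.1% of probe sets at least 2 arrays had exactly equal values, and such genes were counted in no order of 4 arrays. The number of arrays limits precision. GEO's annotation gave 1 symbol to 34945 probe sets, 34741 of them matched by gene ID in the GRCm38.p6 RefSeq table.

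KO was compared with WT over 18193 genes with limma 3.58.1 in R 4.3.3 (lmFit, eBayes, two-sided, no covariate, Benjamini-Hochberg over all genes, no filter), and the fit was tested on simulated data. Differences are KO minus WT. The members, gene lists and comparisons were chosen with earlier results of these data known. All members may be named. Genes outside the list were up to 3 per list of highest mean, up to 5 of largest WT 1 minus WT 2 above the median gene, Xist and Eif2s3y. The pairing of numbers could not be settled from labels. Alternatives were other normalizations, dropping dim genes, averaging the probe sets of a gene, a replicate block, other eBayes settings and leaving out each array.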

Additional observations from a re-analysis of the deposited data

How the results depend on the processing

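The array order, the differences within numbers and the median differences kept their direction under quantile normalization again, median centring, the filter on dim genes and the mean of probe sets. The order held for 30 of the 42 genes as reported and for 27 to 31 of the 42 under the settings that kept all members. It held for 26 of the 36 members left by the filter on dim genes. In Thy1, Timp3 and Col4a2 the order rests on KO arrays only 0.0089, 0.0091 and 0.0077 apart. The median of the members was -0.32 and ran from -1.45 to 0.50 when single arrays were left out, where a lone array is assumed to vary like the others. No member had an adjusted p under 0.05 under any alternative run (limma). Members with an unadjusted p under 0.05 numbered 0 as reported, 1 with the mean of probe sets (Col14a1), 2 with the replicate block (Col14a1 and Fbln2) and 0 to 9 without single arrays. Over all genes 2 had an adjusted p under 0.05, against 4 with median centring, 1 without dim genes, 0 with the mean of probe sets, 0 with the replicate block and 0 without any single array. Those with an unadjusted p under 0.05 numbered 342, against 150 without dim genes (9096 genes tested), 879 with the replicate block and 1044 to 2044 without single arrays. Same-numbered arrays deviated together across genes (r = 0.56, the same correlation of gaps as given above), which is no proof of pairing in the design. The filter on dim genes removed 6 of the 42 members. The values come with no detection calls. The cause of these shifts was not tested.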

Other observations

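Genes outside the list with the widest gap between the WT arrays, among those above the median gene, were Aspn, Ednrb, Ccdc80, Krt33a and Cdh11. Their choice by that gap puts WT 1 above WT 2, and the order WT 1, KO 1, KO 2, WT 2, seen in all 5, was also that of 67.5% of the 209 genes outside the list with a 2-fold gap. Aspn, a small leucine-rich proteoglycan like decorin, was at 8.29 and 7.03 in KO against 9.85 and 6.48 in WT cells. Ccdc80, a matrix-associated secreted protein, was at 9.34 and 8.40 in KO against 10.55 and 7.62 in WT cells. Cdh11, the cadherin of mesenchymal cells, was at 7.78 and 6.58 in KO against 8.64 and 5.91 in WT cells. Ednrb, the endothelin receptor of melanocytes and other cells, was at 8.10 and 6.00 in KO against 8.36 and 5.30 in WT cells, with KO 1 nearly as high as WT 1. Krt33a, a hair shaft keratin and no mesenchymal gene, was at 7.27 and 7.21 in KO against 8.25 and 5.39 in WT cells, with both KO arrays level.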
